A study of Mus musculus with 6 samples.

Results

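Cytochrome P450 genes outside the CYP1 family were examined in GC-2spd cells, a mouse cell line derived from spermatocytes, with and without fine particulate matter (PM2.5). The set holds every protein-coding gene of the GENCODE M21 annotation whose symbol has the form of a numbered P450 gene (Cyp, family number, subfamily letter, member number), without Cyp1a1, Cyp1a2 and Cyp1b1, together with Por. By this rule 96 genes of the 54886 listed were members, 95 P450 genes and Por. Cyp51 and Cyp2ab1 do not have a symbol of this form and are not members.

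RNA was sequenced in 6 libraries, 3 of untreated cells kept in normal culture medium (PM_0) and 3 of cells given PM2.5 at 100 μg/mL for 48 h (PM_100). The study's methods describe control cells as given normal medium and PBS, the fluid in which the particles were suspended. All cells were of the GC-2spd line, with a BALB/c background according to the labels, and were grown in the same serum-containing medium with penicillin and streptomycin. The particles were a standard urban dust material, SRM 1648a, per the study's methods, and the study asked which pathways they altered in spermatocytes. Nothing in the labels says that the 3 libraries of a group came from separate cultures, so p-values measure the spread between these libraries, which may be technical.

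P450 enzymes are heme proteins that insert an oxygen atom into their substrates. In the endoplasmic reticulum they receive electrons from NADPH through a shared flavoprotein, P450 oxidoreductase, the product of Por, while mitochondrial P450s draw on ferredoxin. Some families clear drugs and pollutants, mostly in liver, and others make or break down steroids, bile acids, vitamin D, retinoic acid and fatty acid signals. The CYP1 genes are the classic targets of the aryl hydrocarbon receptor (AhR), which polycyclic aromatic hydrocarbons activate.

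Levels are given as FPKM, the number of sequenced fragments of a gene per kilobase of its length, scaled for sequencing depth, so levels can be set side by side between genes. Whole read counts were recovered from the FPKM and the gene lengths, with between 16209340 and 18003193 reads per library. PM_0 replicate 2 stood apart from the other 5 libraries. Its log2(FPKM + 1) values correlated with those of PM_0 replicates 1 and 3 at r = 0.742 and 0.745 across genes, against 0.992 between replicates 1 and 3, and 14.5% of its reads came from the mitochondrial genome, against 1.65% to 1.95% elsewhere. PM_100 replicate 3 also lay closer to PM_0 replicates 1 and 3 (r = 0.972 with each) than to PM_100 replicates 1 and 2 (r = 0.950 and 0.958). Its Cyp1a1 reads, 400, were nonetheless the most of any library. The comparisons below are therefore given with and without PM_0 replicate 2, and with PM_100 replicate 3 left out as well where this changes a call.

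The label of the cells was checked against marker genes. Of 11 spermatocyte and germ cell markers, none had a mean FPKM of at least 1, and Spo11, Dazl and Piwil1 were listed at 0 in every library. The summed FPKM of these 11 genes was 0.537 to 2.63 in the PM_0 libraries and 0.0750 to 0.678 in the PM_100 libraries, with the highest value in PM_0 replicate 2, where Sycp3 reached 2.56. Of 4 peritubular and fibroblast markers 3 were above an FPKM of 1, among them Col1a1 at 193 to 452. Of 4 Sertoli markers only Gata4, at 11.1 to 22.3, had a mean FPKM of at least 1, and Sox9, Amh and Wt1 averaged 0.17 to 0.64. Of 6 Leydig markers only Star did, at 1.58 to 2.49, and Hsd3b1 and Hsd3b6 were at 0 throughout. All 3 hepatocyte markers had a mean FPKM under 1. The macrophage marker Cd68 was at 15.5 in PM_0 replicate 2 and at 0.750 to 1.80 in the other libraries, while Ptprc and Adgre1 were at 0 throughout. The part of these markers in the results was not tested.

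Most of the set was silent at this depth. Of the 96 members, 62 (64.6%) were listed at 0 in every library, 8 had reads but never 3 in a library, and 26 (27.1%) had at least 3 reads in at least 1 library, the floor taken here for detection. Only 13 members (13.5%) reached that floor in every library, and 8 (8.33%) had a mean FPKM of at least 1. Among all 21995 protein-coding genes the corresponding shares were 27.8% at 0, 65.5% detected, 54.8% detected in every library and 47.2% averaging an FPKM of 1 or more. Over the 62 members listed at 0, the floor corresponds to a median FPKM between 0.0782 and 0.112, depending on the library. A member listed at 0 may thus have been present below that level, and the floor covers counting error only. For 6 members (Cyp4f16, Cyp4f17, Cyp4f13, Cyp4f14, Cyp26a1 and Cyp17a1) the FPKM did not convert to whole reads with the annotated lengths, so their values are given as FPKM and their place above or below the floor is an estimate.

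Detection differed by role. The families that mainly handle xenobiotics, 45 genes, were almost entirely absent, with 38 listed at 0 and 4 detected. All 4 Cyp2a genes, all 5 Cyp2b genes and Cyp2e1 were at 0, as were 12 of 15 Cyp2c genes, 6 of 8 Cyp2d genes and 8 of 9 Cyp3a genes. Cyp2d22 was the single gene of this group with 3 reads in every library. Of the 29 genes that act on fatty acids and eicosanoids, 19 were at 0 and 7 were detected, 6 of them in every library. That group was divided by subfamily, since all 8 Cyp4a genes were at 0 and 4 of 9 Cyp4f genes were detected.

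Of 6 genes of sterol and bile acid metabolism 3 were detected (Cyp39a1, Cyp46a1 and Cyp7b1), and Cyp7a1, the rate-limiting enzyme of bile acid synthesis, and Cyp8b1 were at 0. Of 6 genes of steroid hormone synthesis 3 were detected, with summed FPKM of 0.0520 to 0.190 over the group, and Cyp19a1, the aromatase that makes estrogens, was at 0. All 3 vitamin D genes passed the floor in some library and none in every library. All 3 retinoic acid hydroxylases were detected, and Cyp26b1 had the highest FPKM of them in every library but PM_0 replicate 2, where Cyp26a1 stood at 0.348 and Cyp26b1 at 0.173. Of the little-characterised members Cyp20a1 and Cyp2s1 were detected and Cyp2w1 was at 0.

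**Figure D1:**
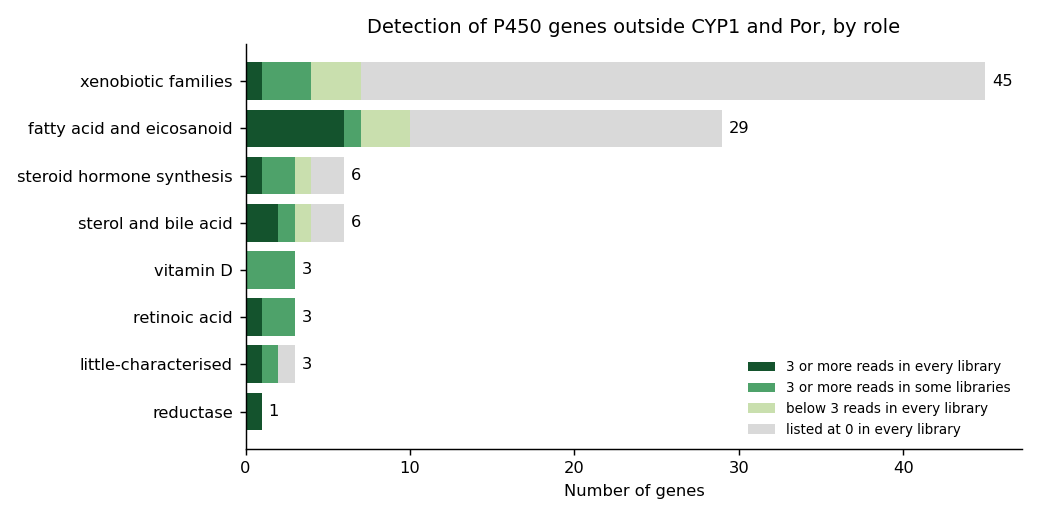
Number of genes in each role group, as bars divided by the detection class of the gene (3 or more reads in every library, in some libraries, below 3 reads, or listed at 0). Of 45 xenobiotic genes 38 are in the class listed at 0, while the 13 genes read in every library are spread over 7 of the groups and include 6 fatty acid genes.

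The 2 most abundant P450 members, Cyp20a1 and Cyp39a1, are also the 2 of 12 in which the usual heme-binding loop was not found. The loop is the stretch of the protein whose cysteine holds the heme iron, and it was searched in the longest coding sequence of each P450 member read in every library as phenylalanine, any pair of residues, glycine, any residue, arginine, any residue, cysteine, any residue, glycine. It occurred exactly in 10 of the 12 genes. The closest stretch of Cyp39a1 had 4 of the 5 fixed residues and lacked the arginine. The closest stretch of Cyp20a1 had 2 of the 5, the first glycine and the cysteine. A match is a description of the letters and not a measurement of heme binding. The 30 bases that encode the loop, or the closest stretch, are shown 5′ to 3′ for the leading members and for Cyp1a1, read from GENCODE M21 on GRCm38, with the codon of the cysteine in capitals.
Cyp20a1: ggcttctcaggcacatgggaaTGTccagaa
Cyp39a1: tttggaggcgggaagttccagTGTcctgga
Cyp4f16: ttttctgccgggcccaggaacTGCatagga
Cyp4f17: ttttctgctgggcctaggaacTGCatagga
Cyp2j6: ttctcaatgggaaagcgagctTGCctggga
Cyp4v3: ttttctgctggacctcgaaacTGTattggt
Cyp1a1: tttggtttgggcaagcgaaagTGCatcgga
The stretch of Cyp20a1 lies in exon 12 of 13 on the plus strand (chr1:60386960-60386989) and that of Cyp39a1 in exon 10 of 12 on the plus strand (chr17:43731982-43732011). The loops of Cyp4f16 (chr17:32550798-32551068, plus strand) and Cyp4f17 (chr17:32528342-32528729, plus strand) are each split by an intron. So are those of Cyp2j6 (chr4:96518186-96523712, minus strand) and Cyp4v3 (chr8:45307107-45308407, minus strand). In Cyp1a1 the loop lies within exon 7 of 7 (chr9:57702664-57702693, plus strand). Of the 30 bases, 11 were identical to those of Cyp1a1 in Cyp20a1, 17 in Cyp39a1, Cyp4f16, Cyp4f17 and Cyp4v3, and 19 in Cyp2j6.

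Por, the electron donor of the microsomal enzymes (ENSMUSG00000005514, chromosome 5 from 135670033 to 135735326, plus strand), had the highest mean FPKM of the members. It overlaps 2 genes on the opposite strand, with 0% of its 31-base sequences in other genes. Its FPKM was 25.3, 15.2 and 24.9 in PM_0 replicates 1, 2 and 3, and 41.1, 39.5 and 26.4 in PM_100 replicates 1, 2 and 3. The means were 21.8 ± 5.72 in PM_0 and 35.7 ± 8.05 in PM_100 (SD, n = 3). All PM_100 libraries were above all PM_0 libraries, but PM_100 replicate 3 lay just above PM_0 replicate 1 and far below the other PM_100 libraries. Across all genes tested, the difference was 0.69 on the log2(FPKM + 1) scale (SE 0.30, limma adjusted p = 0.875) and did not pass the threshold of an adjusted p under 0.05. Without PM_0 replicate 2 it was 0.46 (SE 0.21, limma adjusted p = 0.371). Only when PM_100 replicate 3 was also left out, with 2 libraries against 2, was Por called, at 0.66 (SE 0.05, limma adjusted p = 0.000665). That fit called 48.1% of all genes tested, and PM_100 replicate 3 was left out because of its correlations in these same data. As RNA was taken from whole cultures, a change in which cells were present and a change in RNA per cell cannot be told apart.

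The promoter of Por, the member with the highest mean FPKM, is shown. The AhR core motif, GCGTG on either strand, occurred 3 times in it, and whether AhR acts there was not tested. The window runs from 250 bases before to 50 bases after the RefSeq start of the gene (GRCm38.p6, chr5:135688895-135689194, plus strand), with the core matches in capitals.
Por: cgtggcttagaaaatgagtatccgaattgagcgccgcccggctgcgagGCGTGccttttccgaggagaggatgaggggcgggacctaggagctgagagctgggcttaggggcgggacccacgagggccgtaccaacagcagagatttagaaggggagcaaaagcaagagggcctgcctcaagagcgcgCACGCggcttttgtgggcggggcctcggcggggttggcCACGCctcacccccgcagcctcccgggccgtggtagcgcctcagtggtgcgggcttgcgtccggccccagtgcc
The core was present in 35.2% of 27025 genes with such a window and in 14 of 73 members with one (19.2%). Of the 9 named members with a window, 5 held it, with 2 matches in Cyp20a1, 1 each in Cyp4v3 and Cyp4f16, and 4 in Cyp46a1. Cyp1a1 and Cyp1b1 held 1 match each. The windows of Cyp2j6, Cyp26b1, Cyp4f13 and Cyp11a1 held none, which says only that these letters are not in this window.

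Cyp20a1 (ENSMUSG00000049439, chromosome 1 from 60343323 to 60388060, plus strand) is an orphan P450 without an established substrate, and it led the P450 members. It overlaps the gene 6030460B20Rik on the same strand, with 7.26% of its 31-base sequences in other genes, mostly R3hdm1. Its FPKM was 29.6, 3.71 and 29.6 in PM_0 replicates 1, 2 and 3, and 25.8, 26.97 and 38.5 in the PM_100 replicates. The groups overlapped, and PM_0 replicate 2 was 7.97-fold below the mean of the other PM_0 libraries. The difference between groups was 0.92 on the log2 scale with all libraries (SE 0.76, limma adjusted p = 0.875) and 0.016 without PM_0 replicate 2 (SE 0.19, limma adjusted p = 0.974). Without PM_100 replicate 3 as well it turned to -0.16 (SE 0.05, limma adjusted p = 0.0392), in the fit that called 48.1% of all genes tested.

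Cyp39a1 (ENSMUSG00000023963, chromosome 17 from 43667425 to 43751431, plus strand) hydroxylates oxysterols on the way to bile acids. It overlaps the gene Gm25783 on the same strand, with 0% of its 31-base sequences in other genes. It had 855, 120 and 741 reads in PM_0 replicates 1, 2 and 3, an FPKM of 15.1, 3.03 and 13.5. In the PM_100 replicates it had 517, 558 and 861 reads, an FPKM of 9.48, 10.3 and 15.6. PM_0 replicate 2 was again the lowest library and PM_100 replicate 3 the highest, and PM_100 replicates 1 and 2 lay between PM_0 replicate 2 and the other controls. The sign of the difference depended on the libraries. The difference was 0.36 with all 6 (SE 0.57, limma adjusted p = 0.879) and -0.28 without PM_0 replicate 2 (SE 0.22, limma adjusted p = 0.576). With PM_100 replicate 3 left out too it was -0.49 (SE 0.08, limma adjusted p = 0.00476), in the fit that called 48.1% of all genes tested.

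The Cyp4f enzymes hydroxylate the end of fatty acid chains, leukotrienes among them, and their genes lie in a cluster on chromosome 17. Cyp4f16 (32536558 to 32551798, plus strand) had an FPKM of 5.52, 7.84 and 5.00 in the PM_0 replicates and 5.16, 4.73 and 4.55 in the PM_100 replicates. Cyp4f17 (32506050 to 32530143, plus strand) had an FPKM of 2.42, 1.05 and 2.52 in the PM_0 replicates and 4.33, 3.43 and 3.46 in the PM_100 replicates. Every PM_100 library was above every PM_0 library for Cyp4f17, with means of 1.996 ± 0.823 and 3.74 ± 0.511 (SD, n = 3), whereas for Cyp4f16 the groups overlapped. Cyp4f17 had the smallest unadjusted p of the members in both comparisons (0.0371 with 6 libraries and 0.0140 without PM_0 replicate 2, limma). Its difference was 0.70 (SE 0.26, limma adjusted p = 0.875) and 0.44 (SE 0.12, limma adjusted p = 0.193). It was called only with PM_100 replicate 3 left out as well (0.49, SE 0.11, limma adjusted p = 0.0161), where 48.1% of all genes tested were called. Of the 31-base sequences of Cyp4f16, 26.8% occurred in other genes, mostly Cyp4f37, which was listed at 0 in every library. Of those of Cyp4f17, 12.1% did, mostly in Cyp4f16, so reads may be divided between Cyp4f17 and Cyp4f16. Cyp4f13 stood at 3.03 in PM_0 replicate 2 and at 0.449 to 0.583 in the other 5 libraries.

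Cyp2j6, of a subfamily that epoxidises arachidonic acid, had 158, 194 and 182 reads in the PM_0 replicates and 182, 181 and 242 in the PM_100 replicates, an FPKM of 2.36 to 4.15. Cyp4v3, a fatty acid hydroxylase whose human counterpart is mutated in a crystalline retinal dystrophy, had an FPKM of 1.88, 2.04 and 2.01 in PM_0 and of 2.19, 2.55 and 2.19 in PM_100. The groups of Cyp4v3 did not overlap, but the difference was small, 0.15 on the log2 scale (SE 0.16, limma adjusted p = 0.875). It overlaps the gene Gm45753 on the same strand, with 7.49% of its 31-base sequences in common with other genes. Cyp2u1, a fatty acid hydroxylase, had 68 to 109 reads per library, the most in PM_0 replicate 2. An antisense gene, 4930534D22Rik, overlaps it, and whether strand was used in the counting is not given in the sources used here.

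Among the remaining members read in every library, Cyp2d22, of the drug-metabolising Cyp2d subfamily, had an FPKM of 1.31, 2.47 and 1.31 in PM_0 and of 1.37, 1.40 and 1.26 in PM_100. PM_0 replicate 2 was the highest library, and without it the difference was 0.022 (SE 0.10, limma adjusted p = 0.930). Cyp26b1 degrades retinoic acid and in the fetal testis keeps germ cells from entering meiosis. It had 107, 12 and 131 reads in the PM_0 replicates and 106, 103 and 73 in the PM_100 replicates, with a difference of -0.16 without PM_0 replicate 2 (SE 0.14, limma adjusted p = 0.614). With all 6 libraries its mean FPKM was under 1, and the fit at a mean FPKM of at least 0.1 gave the opposite sign, 0.14 (SE 0.29, limma adjusted p = 0.897). Cyp46a1, the cholesterol hydroxylase of neurons, had 84 reads in PM_0 replicate 2 and 7 to 10 in the other libraries. Cyp11a1, which cuts the side chain of cholesterol in the first step of steroid synthesis, had 3 to 12 reads per library and overlaps the gene Gm17322 on the same strand.

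**Figure D2:**
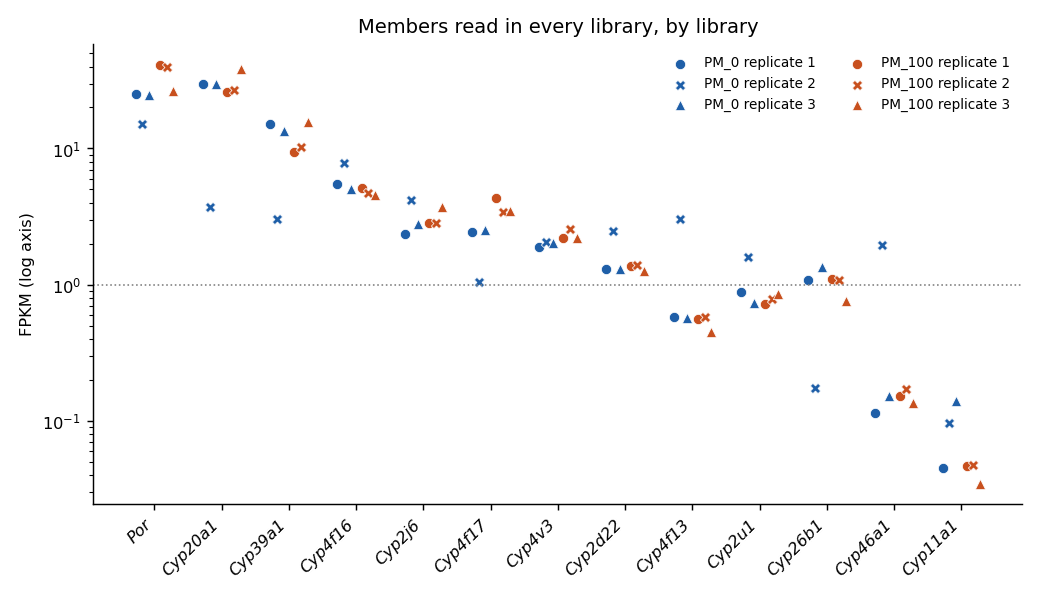
FPKM (log axis) of the 13 members read in every library, 1 symbol per library, with PM_0 in blue, PM_100 in orange and a dotted line at an FPKM of 1. PM_0 replicate 2 (blue crosses) lies far below the other libraries for Cyp20a1, Cyp39a1 and Cyp26b1 and far above them for Cyp46a1 and Cyp4f13.

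Of the members detected in only some libraries, 5 had the most signal. Cyp2s1, described as AhR-responsive in other cells, had 23, 2 and 21 reads in the PM_0 replicates and 17, 12 and 16 in the PM_100 replicates. Cyp27b1, which activates vitamin D, had 5, 20 and 2 reads in PM_0 and 4, 10 and 3 in PM_100. Cyp7b1, an oxysterol hydroxylase, had 6, 0 and 9 reads in PM_0 and 4, 11 and 11 in PM_100. In these 3 genes the groups overlapped with all 6 libraries. Cyp2t4, of the Cyp2 family, had 8, 0 and 8 reads in PM_0 and 5, 4 and 1 in PM_100. Cyp4f14 had an FPKM of 0.381, 0 and 0.300 in PM_0 and 0.209, 0.117 and 0.184 in PM_100. With PM_0 replicate 2, which was at 0 in both, the groups of Cyp2t4 and Cyp4f14 overlapped. Without it, every PM_100 library was below the controls for Cyp2s1, Cyp2t4 and Cyp4f14, and not for Cyp27b1 and Cyp7b1. Of all genes tested in that comparison, at a mean FPKM of at least 1, 37.6% did not overlap in either direction. At so few reads no difference was detectable in any of the 5. The other 8 members detected in some libraries had at most 7 reads where whole reads could be recovered, the 7 being those of Cyp3a13 in PM_100 replicate 3.

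No member was called with all 6 libraries or without PM_0 replicate 2. With 6 libraries, 11 of 11884 genes tested were called in either direction (0.0926%), and 0 of 8 members that had a mean FPKM of at least 1, with 1 member at an unadjusted p under 0.05 (limma). In the fit without PM_0 replicate 2, 119 of 11597 genes were called (1.03%) and 0 of 9 members, again with 1 at an unadjusted p under 0.05. Over all genes tested, 451 and 1855 were at an unadjusted p under 0.05 in these fits. The median difference of the members was 0.25 with 6 libraries, against 0.020 over all genes tested, and 0.022 without PM_0 replicate 2, against -0.011. With PM_100 replicate 3 left out as well, 5594 of 11624 genes were called (48.1%) and 4 of 9 members, Por and Cyp4f17 higher and Cyp20a1 and Cyp39a1 lower in PM_100, a share near that of all genes. Lower filters tested 17 members at a mean FPKM of 0.1 and 34 without a filter, and called 0 of them with 6 libraries. Limma's voom on the recovered reads also called 0, of 19 members.

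The groups were also compared by whether their libraries overlapped. With 6 libraries 3 of 8 members (Por, Cyp4f17 and Cyp4v3) had every PM_100 library above every PM_0 library and none the reverse, while 15.2% of all genes tested did not overlap in either direction. Leaving out PM_0 replicate 2, it was 4 of 9 members, with Cyp2j6 added, against 37.6% of all genes tested. The first share was above that of all genes and the second near it, with no test made of either. PM_0 replicate 2 lay outside the range of the other 5 libraries in 7 of the 8 members (87.5%) and in 82.9% of all genes tested. PM_100 replicate 3 lay outside the range of the other 5 in 4 of 8 members (50%) and in 40.3% of all genes.

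**Figure D3:**
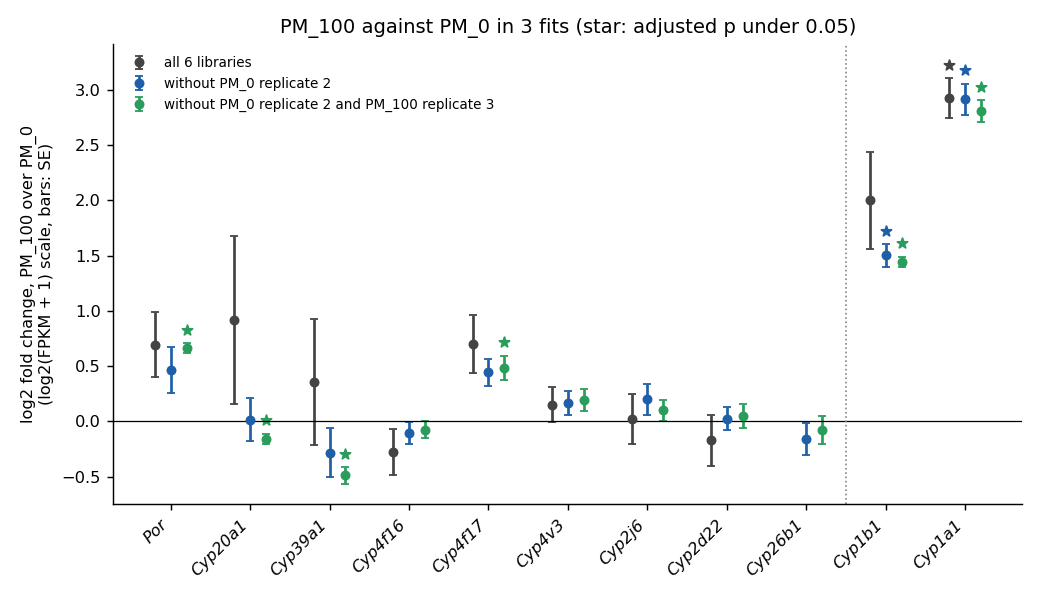
Log2 fold change of PM_100 over PM_0 on the log2(FPKM + 1) scale with its SE, for each member tested and, right of the dotted line, Cyp1b1 and Cyp1a1, in 3 fits. A star marks an adjusted p under 0.05. Members lie between -0.49 and 0.92, while Cyp1a1 is between 2.81 and 2.92 in all 3 fits. The members with a star, 4 of 9, have it only in the fit of 2 libraries against 2, which called 48.1% of all genes tested.

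For contrast, Cyp1a1 had 2, 0 and 0 reads in the PM_0 replicates and 306, 302 and 400 in the PM_100 replicates. It was called with 6 libraries (2.92, SE 0.18, limma adjusted p = 0.0301) and without PM_0 replicate 2 (2.91, SE 0.14, limma adjusted p = 0.00661). With only PM_100 replicate 3 left out it was not called (2.81, SE 0.18, limma adjusted p = 0.247). No gene was called when any other single library but PM_0 replicate 2 was left out of the 6. Cyp1b1 had an FPKM of 29.0, 9.41 and 27.5 in PM_0 and 78.8, 78.5 and 88.8 in PM_100. It passed the threshold without PM_0 replicate 2 (1.501, SE 0.10, limma adjusted p = 0.00970) and not with it (1.998, SE 0.44, limma adjusted p = 0.538). Cyp1a2 was at 0 in every library.

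The make-up of the P450 transcripts was compared as sums of FPKM. Summed over the 95 members without Por, the FPKM was 62.3, 32.5 and 61.0 in the PM_0 replicates and 54.8, 55.9 and 72.5 in the PM_100 replicates, with means of 51.9 ± 16.9 and 61.1 ± 9.90 (SD, n = 3). Without PM_0 replicate 2 the PM_0 mean was 61.6 ± 0.875 (SD, n = 2), within the range of the PM_100 libraries. Of the FPKM of these members and the CYP1 genes together, CYP1 made up 31.8%, 22.5% and 31.1% in PM_0. It made up 60.8%, 60.2% and 57.2% in PM_100, without overlap. Cyp51 and Cyp2ab1 are not in these sums. Cyp51 alone had an FPKM of 67.4, 36.0 and 68.0 in PM_0 and 56.6, 59.9 and 79.0 in PM_100. The CYP1 share of all P450 transcripts was therefore lower than these values. Cyp20a1 and Cyp39a1 together gave 64.4% to 74.6% of the members' sum in 5 libraries and 20.8% in PM_0 replicate 2, where Cyp4f16 led with 24.2%. The ratio of Por to that sum was 0.406, 0.468 and 0.408 in PM_0 and 0.750, 0.706 and 0.364 in PM_100, so PM_100 replicate 3 was below all the controls in it.

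**Figure D4:**
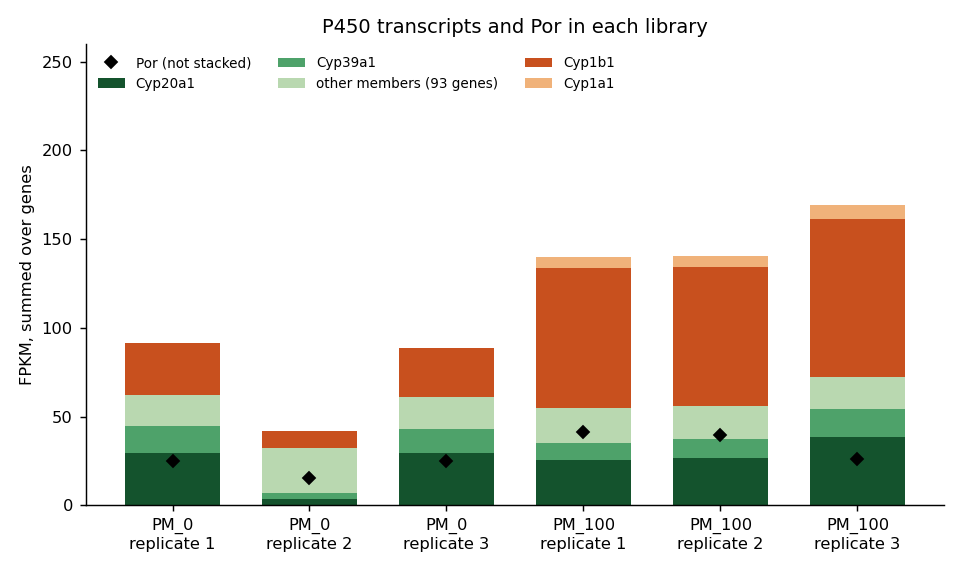
Summed FPKM of the P450 members and CYP1 genes in each library, with Por as a diamond that is not stacked. The stacked bars are Cyp20a1, Cyp39a1, the other members, Cyp1b1 and Cyp1a1, and Cyp51 and Cyp2ab1 are not included. The members' part is 54.8 to 72.5 in every library but PM_0 replicate 2 (32.5), while the CYP1 part is 84.6 to 96.7 in PM_100 and 9.41 to 29.1 in PM_0.

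Genes that work with the P450s were tested in the same fits. Of 17 genes of electron transfer and heme synthesis 16 were tested, and 0 were called with 6 libraries, 1 of them at an unadjusted p under 0.05 (limma). In the fit of 5 libraries, without PM_0 replicate 2, 1 was called, Cpox, which makes a late precursor of heme. There 2 of the 16 were at an unadjusted p under 0.05 (limma). Of all 11597 genes tested in that fit, 1855 were under that p and 119 were called (1.03%). Cpox had an FPKM of 10.2, 2.92 and 10.9 in PM_0 and 25.9, 25.9 and 23.8 in PM_100, every PM_100 library above every PM_0 library, and a difference of 1.19 (SE 0.09, limma adjusted p = 0.0141). With all 6 libraries it was 1.70 (SE 0.45, limma adjusted p = 0.758). Leaving out PM_100 replicate 1 or 2 together with PM_0 replicate 2 ended the call, in fits that called 0 of all genes tested. With PM_100 replicate 3 left out instead Cpox stayed called, in the fit that called 48.1% of all genes tested. Over the 5 fits that left out a further library, the difference was 1.14 to 1.23. Alas1, which catalyses the first step of heme synthesis, had an FPKM of 7.68, 5.59 and 7.80 in PM_0 and 9.41, 10.7 and 9.37 in PM_100, without overlap and not called (0.31, SE 0.10, limma adjusted p = 0.249 without PM_0 replicate 2). Cpox and Alas1 were named after their values were seen.

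Of 18 regulators of P450 genes 12 were tested, and 0 were called with 6 libraries, also at an unadjusted p under 0.05 (limma). With PM_0 replicate 2 left out, 2 of the 12 were at an unadjusted p under 0.05 (limma) and 1 was called. That fit called 119 of all 11597 genes tested (1.03%). The regulator called was Nr1h4, the bile acid receptor FXR, named after its values were seen. Its FPKM was 15.3, 32.3 and 15.5 in PM_0 and 24.3, 25.9 and 26.6 in PM_100, a difference of 0.69 (SE 0.09, limma adjusted p = 0.0474), while with PM_0 replicate 2, the highest library, the groups overlapped and the difference was 0.35 (SE 0.32, limma adjusted p = 0.875). This call too was lost when PM_100 replicate 1 or 2 was also left out, in fits that called 0 of all genes tested. It stayed with PM_100 replicate 3 left out instead, where 48.1% of all genes tested were called. Over the 5 fits that left out a further library, the difference was 0.67 to 0.73. Ahr itself had an FPKM of 3.30, 1.21 and 3.36 in PM_0 and 2.86, 2.84 and 3.32 in PM_100. Of 17 genes of cholesterol synthesis and uptake, the pathway of Cyp51, 16 were tested and 0 were called in either comparison, with 0 and 3 at an unadjusted p under 0.05 (limma) and median differences of -0.03 and -0.16. In the second fit 1855 of the 11597 genes tested were under that p.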

How the data were processed

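Per the labels and the study's methods, libraries were made with the NEBNext Ultra kit and sequenced on an Illumina Novaseq as paired-end reads. The submitters' processing notes name HISAT2 2.0.5, featureCounts 1.5.0-p3 and the genome build mm9. The authors deposited FPKM values for each library, and used DESeq2 for their own calls. Lengths and positions used here are those of GENCODE M21 on GRCm38, a build other than that in the notes.

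FPKM was multiplied by exon length and divided by the step between low values to recover reads. Of values under 50 reads, 98.1% to 98.4% came out whole within 0.05. The depth implied by the FPKM was 0.800 of the recovered total in PM_0 replicate 2 and 1.03 to 1.05 of it elsewhere, so the deposited values were not scaled to library totals. The implied depth instead followed the median-of-ratios size factors of the recovered reads, 0.769 in PM_0 replicate 2 and 1.06 to 1.11 elsewhere. Differences were tested with limma 3.58.1 in R 4.3.3, with its trend and robust settings and statmod 1.5.0, on log2(FPKM + 1) of genes averaging an FPKM of 1 or more in the libraries fitted, with Benjamini-Hochberg adjustment over all genes tested and a threshold of 0.05. A fold change on this scale understates the change of low genes. Groups were taken from the labels. No 2 libraries agreed within sampling noise (chi-square per degree of freedom of 3.17 or more).

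The members, the lists and the choice to leave out PM_0 replicate 2 were made with earlier results of these data known. PM_100 replicate 3 was left out as well because of its correlations in these same data. Named with values were members with a mean FPKM of at least 1 or called in either fit, members with at least 3 reads in every library, and the 5 with the most reads among those detected in some libraries. Cyp1 genes served as contrast. Alternatives were other filters, pseudocounts, scalings, voom on recovered reads, a replicate block and leaving out each library. The procedures were tested on simulated data in which no library stood apart. That test therefore does not cover libraries such as PM_0 replicate 2 or PM_100 replicate 3. Tables and figures used numpy 2.4.6, pandas 2.3.3 and matplotlib 3.10.9. Protein sequences were translated from the coding sequences of GENCODE M21, and none were taken from another source.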

Additional observations from a re-analysis of the deposited data

How the results depend on the processing

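No member was called under any other filter, pseudocount or scaling, with or without PM_0 replicate 2. The count of all genes called did move. With 6 libraries it was 11 as reported, 0 without a filter (875 at an unadjusted p under 0.05), 4 at a mean FPKM of at least 0.1, 6 with scaling to total reads, which shifted the median difference of all genes from 0.020 to 0.13, 0 with voom on library totals (748 at an unadjusted p under 0.05) and 1 with voom on size factors. Leaving out each library gave 0 to 119 genes, with 119 without PM_0 replicate 2 and 0 without any of the other 5. Of the genes tested without PM_0 replicate 2, 54 were called without a filter, and leaving out a further library gave 0 to 5594 genes and 0 to 4 members, the highest without PM_100 replicate 3 and 0 genes in the other 4 fits. Where 1 control library was left, it was assumed to vary like the other group.

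Replicate numbers were tried as pairs. The deviations of same-numbered libraries correlated at -0.28, 0.18 and 0.25 across genes, so the numbers were not taken to pair the libraries. With the replicate block, 0 genes were called (335 at an unadjusted p under 0.05) and 0 members.

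Among members that passed the filter of a mean FPKM of at least 1, the log2 difference changed sign for 4 when single libraries were left out. Its range was -0.28 to 0.71 for Cyp39a1, -0.11 to 0.20 for Cyp2j6 and -0.27 to 0.022 for Cyp2d22 with 6 libraries, and -0.16 to 0.12 for Cyp20a1 without PM_0 replicate 2. At the filter of 0.1, Cyp26b1, Cyp27b1, Cyp2s1 and Cyp46a1 also changed sign when PM_0 replicate 2 was left out, and none was called. Without PM_0 replicate 2, Cpox lost its call with PM_100 replicate 1 or 2 also left out (limma adjusted p of 0.0850 and 0.1285), where 0 genes were called. Nr1h4 lost its call in these fits too, and with lower filters (limma adjusted p of 0.0664 and 0.114). The causes were not tested. Detected members numbered 26 as reported, 34 at 1 read or more in a library, 17 at 10 reads or more, 17 at a mean FPKM of at least 0.1, 13 at 3 reads in every library, and 24 to 26 with a library left out. Members with few reads limit what could be seen at this depth.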

Other observations

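Nr5a1, the receptor that drives steroid hormone synthesis, had an FPKM of 15.96, 35.2 and 15.2 in the PM_0 replicates and 22.6, 20.7 and 11.1 in the PM_100 replicates, while its target Cyp11a1 had 3 to 12 reads per library and Cyp17a1 an FPKM of 0 to 0.0775. Cyp51, which demethylates lanosterol, had an FPKM of 67.4, 36.0 and 68.0 in PM_0 and 56.6, 59.9 and 79.0 in PM_100, above every P450 member described here in each library. PM_0 replicate 2 was the lowest library and PM_100 replicate 3 the highest for Cyp51, as they were for Cyp20a1 and Cyp39a1.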
